A study of Sus scrofa with 6 samples.

Results

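The let-7 family was examined by small RNA sequencing in pig oocytes stripped of the surrounding cumulus cells (denuded oocytes). Its members were taken by name: every listed mature miRNA whose name begins with let-7, together with miR-98, which gave 9 of the 326 mature pig miRNAs in the deposited tables. Oocytes came from prepubertal gilts slaughtered at an abattoir and formed 2 groups of 3 libraries, with no strain, age or treatment given. The LO group was drawn from large follicles, 3 to 6 mm across, through a 20-gauge needle on a 10 mL syringe. The SO group was drawn from small follicles, less than 2 mm across, through a 23-gauge needle on a 5 mL syringe. Follicle size, needle and syringe therefore cannot be told apart. The series title ties the profile to how competent the oocyte is to develop. The submitters call the libraries biological replicates but state no number of animals or oocytes per library, so p-values measure the spread between these libraries only.

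let-7 miRNAs are among the most conserved animal miRNAs. They are known as timers of development that accumulate as cells differentiate and repress growth genes such as HMGA2, MYC and RAS. The protein LIN28, abundant in stem cells and germ cells, binds let-7 precursors and blocks their maturation. A miRNA finds its messenger RNAs mainly through its seed, bases 2 to 8 from the 5′ end, and members with the same seed are read as sharing most of their predicted targets.

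The listed sequences are shown because the members differ from each other by so few bases. They are written as in the deposited tables, 5′ to 3′ with T for U, and capitals mark the seed.
ssc-let-7a: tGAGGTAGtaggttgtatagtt
ssc-let-7f: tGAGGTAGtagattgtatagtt
ssc-let-7c: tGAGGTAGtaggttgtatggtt
ssc-let-7e: tGAGGTAGgaggttgtatagtt
ssc-let-7g: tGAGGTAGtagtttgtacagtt
ssc-let-7i: tGAGGTAGtagtttgtgct
ssc-let-7d-5p: aGAGGTAGtaggttgcatagtt
ssc-miR-98: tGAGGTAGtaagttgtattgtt
ssc-let-7d-3p: cTATACGAcctgctgcctttct

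The seed GAGGTAG was found at bases 2 to 8 of 8 of the 326 listed names, and all 8 are in the family. The remaining member, let-7d-3p, is the opposite arm of the let-7d hairpin and has another seed. Against let-7a, counting from 1 at the 5′ end of let-7a, let-7f carries G12A, let-7c A19G and let-7e T9G as their only substitutions. let-7d-5p carries T1A and T16C, let-7g G12T and T18C, and miR-98 G11A and A19T. let-7i, listed with 19 bases where the others have 22, carries G12T, A17G, T18C and A19T. No listed name outside the family came closer than 7 differences over the first 19 bases to a member with the let-7 seed. Reads of let-7a, let-7c, let-7e and let-7f can thus be assigned to the wrong name by 1 sequencing error or 1 allowed mismatch, and the labels do not state how mismatches were handled.

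The genes behind these names lie partly together. In the RefSeq gene table of Sscrofa11.1, which is another build than the one the submitters name and was used for names and neighbours only, 1 let-7a gene (MIRLET7A-2) has MIRLET7F-2 and MIRLET7D within 100 kb. The other let-7a gene (MIRLET7A-1) has MIR100 and MIR125B-1 as neighbours, MIRLET7C has MIR99A, and MIRLET7E has MIR99B and MIR125A. MIRLET7F-1 and MIR98 are neighbours within HUWE1, which encodes a ubiquitin ligase, and MIRLET7G lies within WDR82. MIRLET7I has no miRNA gene within 100 kb. let-7a and let-7f are each made by 2 genes, so their reads cannot be given to 1 locus.

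The libraries differed in depth. Reads of listed miRNAs ranged from 7755 to 42541 in LO and from 44964 to 55230 in SO, so LO values are coarser. Values are in RPM, that is, reads scaled to 1000000 reads of a total that the authors chose per library. Listed miRNA reads made up 3.03%, 1.68% and 2.99% of that total in LO replicates 1 to 3. In SO replicates 1 to 3 they made up 2.88%, 2.34% and 2.33%. RPM values therefore also follow this part of a library. One read is worth 0.702 to 2.17 RPM in LO, against 0.457 to 0.522 RPM in SO. Markers of other cells that a denuded oocyte preparation could hold were looked up by name. The 9 listed granulosa and cumulus names, all with at least 1 read, took 1.51% to 2.97% of listed miRNA reads in LO and 1.25% to 1.81% in SO. Nearly all of this was miR-21 (102 to 415 RPM in LO, 167 to 309 in SO) and miR-31 (147 to 476 and 116 to 206). Both were above let-7e in every library, and the other granulosa and cumulus names reached at most 5.48 RPM. The 9 theca, stroma and smooth muscle names, with miR-214 at 0 in every library, took 0.252% to 0.438% and 0.194% to 0.349%. The endothelial names took at most 0.0645% and the erythroid names at most 0.0258% of any library. No list of oocyte-defining miRNAs was fixed, so the oocyte label was checked through these other cell types only.

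All 9 members had reads in every library, and 3 of them carried most of the family. let-7a, let-7f and let-7c together made up 88.5% to 90.5% of family reads in LO and 89.9% to 90.2% in SO, and their order, let-7a above let-7f above let-7c, was the same in each of the 6 libraries. let-7a (listed as ssc-let-7a), the member to which the others are compared here, lay at 1957, 776 and 1208 RPM in LO replicates 1 to 3 and at 1070, 974 and 727 RPM in SO replicates 1 to 3. Its rank among all listed miRNAs of a library was 3 to 6. LO replicates 1 and 3 were above every SO library, and LO replicate 2 lay between SO replicates 3 and 2.

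let-7f (ssc-let-7f) had 1254, 405 and 697 RPM in LO, against 709, 638 and 565 RPM in SO. The SO libraries were close together and fell inside the range of the LO libraries. let-7c (ssc-let-7c) had 1160, 286 and 473 RPM in LO, against 261, 339 and 228 RPM in SO. LO replicates 1 and 3 were above every SO library, and LO replicate 2 lay between SO replicates 1 and 2. let-7c ranked from 6 to 10 among the listed miRNAs in LO and from 12 to 15 in SO.

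**Figure D1:**
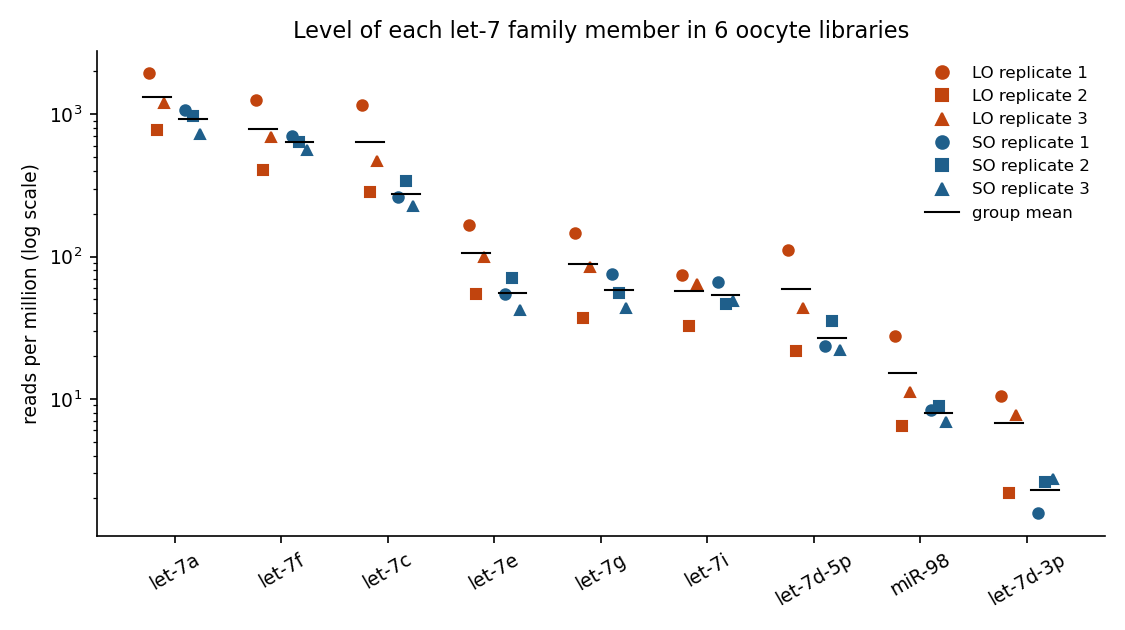
Level of each member in RPM on a log axis, with 1 symbol per library, colours for LO (large follicles) and SO (small follicles) and a black bar at the group mean. let-7a, let-7f and let-7c lie above 200 RPM in every library, every other member lies below that level, and for each member LO replicate 1 is the highest symbol.

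The other members were far lower. let-7e (ssc-let-7e), the member made beside miR-99b and miR-125a, had 167, 54.2 and 99.0 RPM in LO, against 54.3, 70.4 and 42.0 RPM in SO. let-7g (ssc-let-7g) had 146, 36.8 and 84.3 RPM in LO, against 75.7, 55.2 and 43.4 RPM in SO. let-7e was above let-7g in each LO library and in SO replicate 2, and below it in SO replicates 1 and 3. The ranges of these neighbours in the order overlap in both groups. In LO the mean was 107 ± 56.7 RPM for let-7e and 89.0 ± 54.7 RPM for let-7g, and in SO it was 55.6 ± 14.2 and 58.1 ± 16.3 RPM (SD, n = 3 each). let-7i (ssc-let-7i) had 74.7, 32.5 and 63.9 RPM in LO, against 65.8, 46.4 and 48.4 RPM in SO, and its LO mean of 57.0 and SO mean of 53.5 RPM were the closest of all members.

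let-7d-5p (ssc-let-7d-5p) had 111, 21.7 and 43.5 RPM in LO, against 23.5, 35.4 and 21.9 RPM in SO. It overlapped let-7i in LO, and in SO each let-7d-5p value was below each let-7i value. miR-98 (ssc-miR-98), the member whose name hides its let-7 seed, had 27.8, 6.50 and 11.2 RPM in LO, against 8.35, 8.86 and 6.86 RPM in SO, from 3 to 17 reads a library. let-7d-3p (ssc-let-7d-3p) was the lowest, with 10.4, 2.17 and 7.72 RPM in LO, against 1.57, 2.61 and 2.74 RPM in SO. These rest on 1 to 11 reads a library, 32 in all, and this was the only member with too few reads to be tested.

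The hairpin of let-7d is the only one in the family listed with both arms. Its 5p arm held 64, 10 and 62 reads in LO and 45, 68 and 48 reads in SO, and its 3p arm 6, 1 and 11 reads in LO and 3, 5 and 6 reads in SO. The 5p arm thus exceeded the 3p arm in every library, by 5.64 to 10.7 times in LO and 8.0 to 15 times in SO. The ranges of the ratio overlap. At a mean of 5.33 reads the 3p arm stayed under the minimum of 10 set for a test of arm balance, so none was made.

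The whole family took 16.2% of listed miRNA reads in LO replicate 1 (95% exact Clopper-Pearson interval 15.6 to 16.7), 9.65% in LO replicate 2 (9.0 to 10.3) and 9.0% in LO replicate 3 (8.73 to 9.27). The share was 7.87% (7.65 to 8.10), 9.26% (9.0 to 9.53) and 7.24% (7.02 to 7.47) in SO replicates 1 to 3. The intervals cover counting error only. Any use of molecular identifiers is not stated, so the reads may not be independent molecules. LO replicate 1 stood apart. LO replicate 2 was above each SO library, but its interval overlapped that of SO replicate 2. LO replicate 3 lay inside the range of the SO libraries. The mean was 11.6% ± 3.97 for LO and 8.12% ± 1.04 for SO (SD, n = 3 each). The means thus lay 3.48 percentage points apart, and 1.20 points apart without LO replicate 1.

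LO replicate 1 had the highest RPM of all 6 libraries for each of the 8 tested members, and for 62.5% of all 104 miRNAs tested. By share of listed miRNA reads, which does not depend on the authors' total, it was highest for the same 8 members and for 55.8% of the 104. It also had the highest share of granulosa and cumulus markers, 2.97% against 1.51% and 2.00% in the other LO libraries, most of it from miR-21 and miR-31. The part of these cells in the let-7 values was not tested. Fewer or more cells of a type and less or more RNA per cell cannot be told apart in such bulk libraries.

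**Figure D2:**
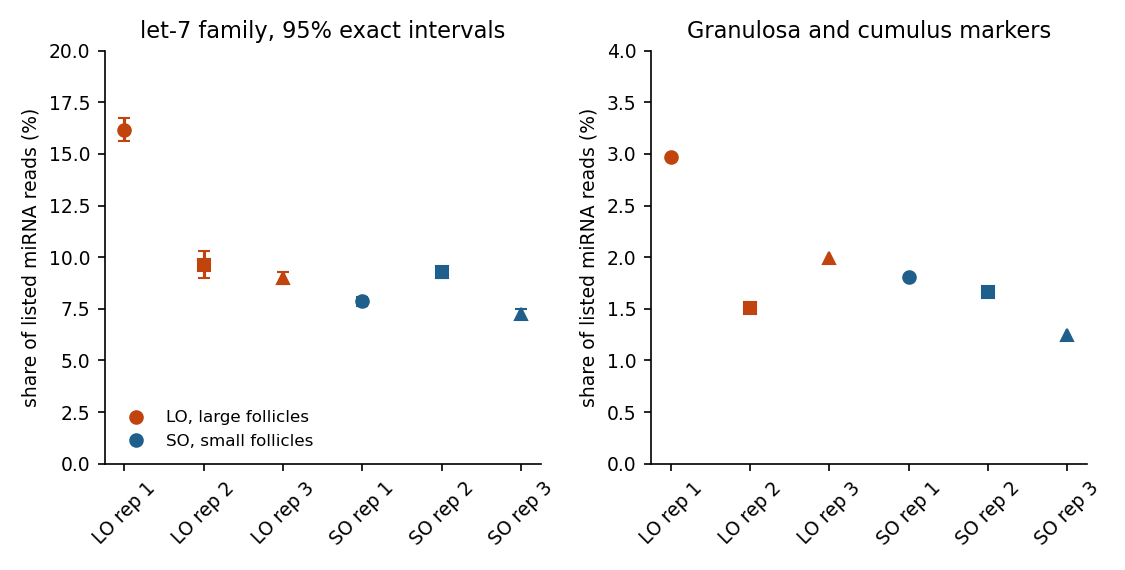
Share of listed miRNA reads in each library, in percent, for the summed let-7 family (left, bars are 95% exact intervals) and for the summed granulosa and cumulus markers (right). LO replicate 1 is highest in both panels, at 16.2% and 2.97%, and the other 5 libraries lie between 7.24% and 9.65% on the left.

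Within the family the members' proportions do not depend on how a library is scaled. let-7f took 25.5%, 25.0% and 25.9% of family reads in LO replicates 1 to 3, against 31.2%, 29.4% and 33.5% in SO. Each LO library was below each SO library, and the means were 25.5% ± 0.476 and 31.4% ± 2.05 (SD, n = 3 each). LO minus SO was -5.89 percentage points. An exact two-sided permutation test gave p = 0.1, the smallest that 3 libraries against 3 allow. Any share whose group ranges are apart gets this value, so it adds nothing to the ranges. The interval of LO replicate 2 (21.9 to 28.3) overlaps that of SO replicate 2 (28.0 to 30.8), and the other LO intervals end at or below 27.4.

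let-7c showed the opposite order. Shares within the family sum to the whole, so a higher share of let-7c lowers that of let-7f, and these results are not independent. In RPM the mean of let-7f was not lower in LO, at 785 ± 431 against 637 ± 72.1 in SO (SD, n = 3 each), with overlapping ranges. The order of let-7c was as follows. let-7c took 23.6%, 17.6% and 17.6% of family reads in LO and 11.5%, 15.6% and 13.5% in SO, so each LO library was above each SO library. The means were 19.6% ± 3.48 and 13.6% ± 2.06, 6.07 percentage points apart (p = 0.1 by exact two-sided permutation, the smallest possible). LO replicate 1 lay furthest out, and without it the difference was 4.06 points. The intervals of LO replicate 2 (15 to 20.6) and LO replicate 3 (16.4 to 18.8) overlap that of SO replicate 2 (14.5 to 16.8).

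let-7e also had shares that did not overlap, at 3.40%, 3.34% and 3.68% in LO and 2.39%, 3.24% and 2.49% in SO (exact two-sided permutation p = 0.1). Its LO replicate 2 value rests on 25 reads, with an interval from 2.17 to 4.89. The interval of LO replicate 1 (2.76 to 4.13) overlaps those of SO replicates 1 to 3 (1.96 to 2.89, 2.72 to 3.82 and 2.02 to 3.05). That of LO replicate 3 (3.11 to 4.33) overlaps SO replicate 2. Family shares have no counterpart among other miRNAs, so these 3 of 9 members have no background rate beside them. The other 6 of the 9 members overlapped, with exact permutation p-values from 0.2 to 1. let-7a took 39.9%, 47.9% and 44.9% in LO and 47.1%, 44.9% and 43.1% in SO. let-7g took 2.79% ± 0.458 and 2.82% ± 0.448, let-7i 1.97% ± 0.429 and 2.64% ± 0.433, let-7d-5p 1.74% ± 0.475 and 1.32% ± 0.299, miR-98 0.462% ± 0.0908 and 0.394% ± 0.0227, and let-7d-3p 0.211% ± 0.0769 and 0.117% ± 0.0469 in LO and SO.

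**Figure D3:**
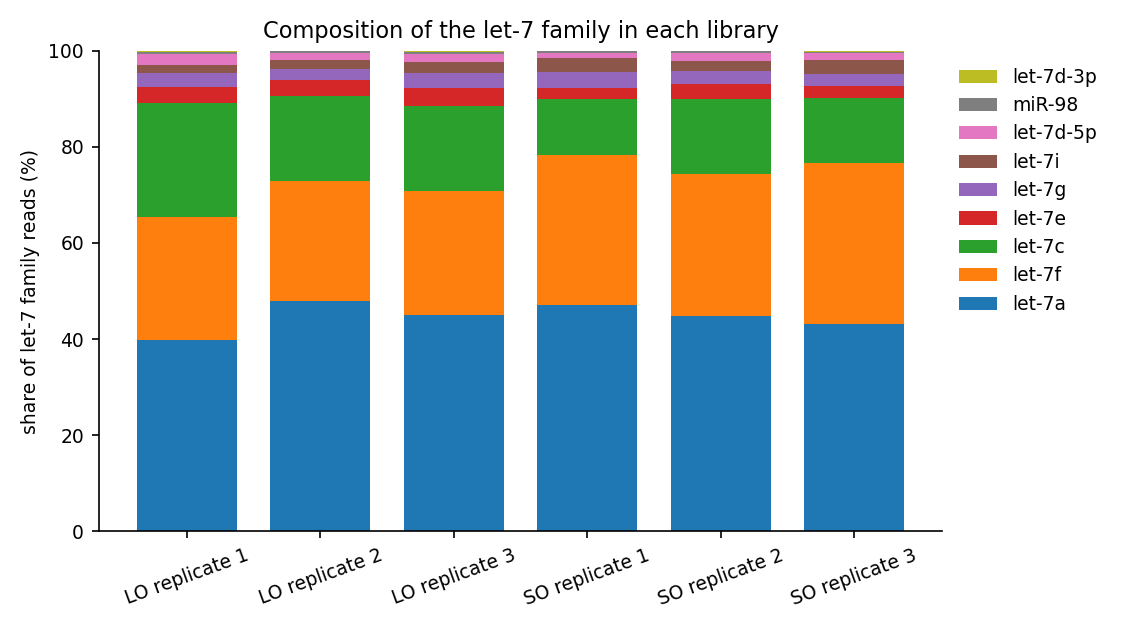
Share of each member among the let-7 family reads of a library, in percent, stacked to 100 for 3 LO and 3 SO libraries. The let-7f segment spans 25.0% to 25.9% in LO and 29.4% to 33.5% in SO, and the let-7c segment 17.6% to 23.6% in LO and 11.5% to 15.6% in SO.

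Set against each other, let-7f exceeded let-7c by 1.08, 1.42 and 1.48 times in LO replicates 1 to 3 and by 2.72, 1.88 and 2.48 times in SO. All 3 LO ratios were below all 3 SO ratios, and the mean ratio was 1.32 ± 0.213 in LO and 2.36 ± 0.430 in SO. These names differ from each other at 2 of 22 bases. This pair was singled out after its values were seen, so no p-value is given for it. Of the 28 pairs among the 8 tested members, 8 (28.6%) had ratios whose group ranges were apart, and 7 of these involved let-7c or let-7f. Group ranges were also apart for 16.6% of all 4950 pairs among the 100 tested miRNAs with reads in every library. Ratios that separate the groups were thus common. let-7c and let-7f are each in 7 of the 28 member pairs, with 4 apart for each. Pairs that share a member are not independent.

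The ratio of let-7a to let-7c was 1.69, 2.71 and 2.56 in LO and 4.10, 2.87 and 3.19 in SO, again apart. let-7a to let-7f was 1.56, 1.91 and 1.73 in LO and 1.51, 1.53 and 1.29 in SO, apart in the other direction and by a narrower margin. let-7f and miR-98, neighbours within HUWE1, stood at 45.1, 62.3 and 62.1 to 1 in LO and 84.9, 72.1 and 82.4 to 1 in SO, with as few as 3 reads of miR-98 in LO replicate 2. let-7g to let-7i overlapped, at 1.13 to 1.95 in LO and 0.896 to 1.19 in SO.

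**Figure D4:**
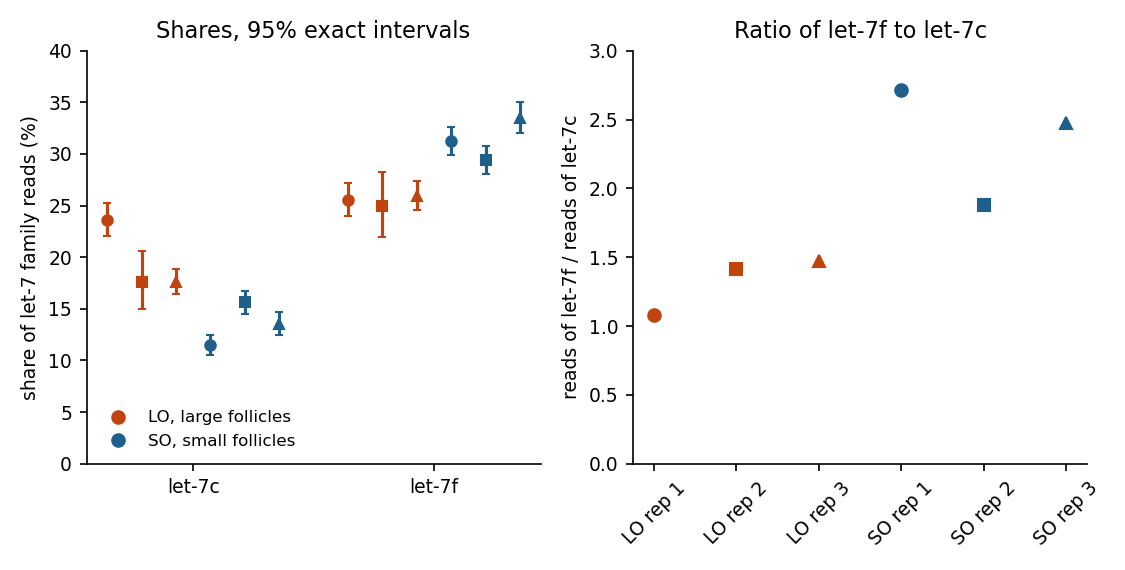
Left, share of let-7c and let-7f among family reads in each library, in percent, with 95% exact intervals. Right, reads of let-7f over reads of let-7c in each library, where the 3 LO libraries lie between 1.08 and 1.48 and the 3 SO libraries between 1.88 and 2.72.

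The level of each member was then compared between LO and SO in a fit over all 104 miRNAs with enough reads (limma on log2(RPM + 1), Benjamini-Hochberg adjustment, significance at a false discovery rate, FDR, of 0.05). None of the 8 tested members passed, nor did any other miRNA (0% of 104). let-7c had an unadjusted limma p under 0.05, as did 3.85% of all tested miRNAs on the side higher in LO. The log2 fold change of let-7c was 0.98 (SE 0.44, limma FDR 0.763). let-7d-5p and let-7e followed with log2 fold changes of 0.82 (SE 0.58) and 0.82 (SE 0.54), and miR-98 with 0.62 (SE 0.70). let-7g was at 0.44 (SE 0.54), let-7a at 0.42 (SE 0.39), let-7f at 0.16 (SE 0.41) and let-7i at 0.02 (SE 0.56), with limma FDRs from 0.780 to 0.985. Each SE follows the trend with abundance in this fit. A limma p thus uses the spread between libraries typical of miRNAs at that abundance, not the member's own spread. In RPM no tested member had LO and SO ranges that were apart, beside 1.92% of all tested miRNAs with each LO library above each SO library. As a share of listed miRNA reads, let-7c and let-7e had that order, as did 8.65% of all tested miRNAs.

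All 8 tested members had fold changes above 0 on this scale, beside 69.2% of all tested miRNAs, and 6 of the 8 with TMM scaling, beside 52.9%. TMM assumes that most miRNAs do not differ. The median was 0.53 for the members and 0.29 for all tested miRNAs on the deposited scaling, and 0.28 and 0.05 with TMM. let-7f and let-7i then stood at -0.09 and -0.22, so their direction depended on the scaling. let-7c stayed on the higher side at 0.74. On recovered reads edgeR with TMM called 1.92% of the tested miRNAs higher in LO and none of the members. An unadjusted edgeR p under 0.05 on that side was found for 5.77% of tested miRNAs and for let-7c alone among the members (edgeR FDR 0.141). DESeq2 also called no member and 1.92% of all.

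The calls turned on single libraries. LO replicate 2 was the shallowest library and had the lowest part of listed miRNA reads, 1.68% of its total. Without LO replicate 2, limma called 17.3% of all tested miRNAs higher in LO, with a median fold change of 0.62 over all. The called members were let-7c (log2 fold change 1.44, FDR 0.000972), let-7d-5p (1.37, FDR 0.0346) and let-7e (1.23, FDR 0.0346). edgeR with TMM without the same library called none of them and 0.962% of all tested miRNAs, with a median of -0.03 over all and FDRs of 0.0810 for let-7c, 0.211 for let-7d-5p and 0.283 for let-7e. Over all alternatives the FDR ran from 0.000972 to 0.992 for let-7c and from 0.0346 to 0.992 for let-7d-5p and let-7e. Without LO replicate 1 no member and no other miRNA was called by limma, the members' median fold change was 0.09 against -0.06 over all, and let-7f, let-7g and let-7i were at -0.26, -0.02 and -0.21. When SO replicate 2 was left out of edgeR, 3.85% of all tested miRNAs were called, let-7c among them (log2 fold change 1.05, FDR 0.0455).

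**Figure D5:**
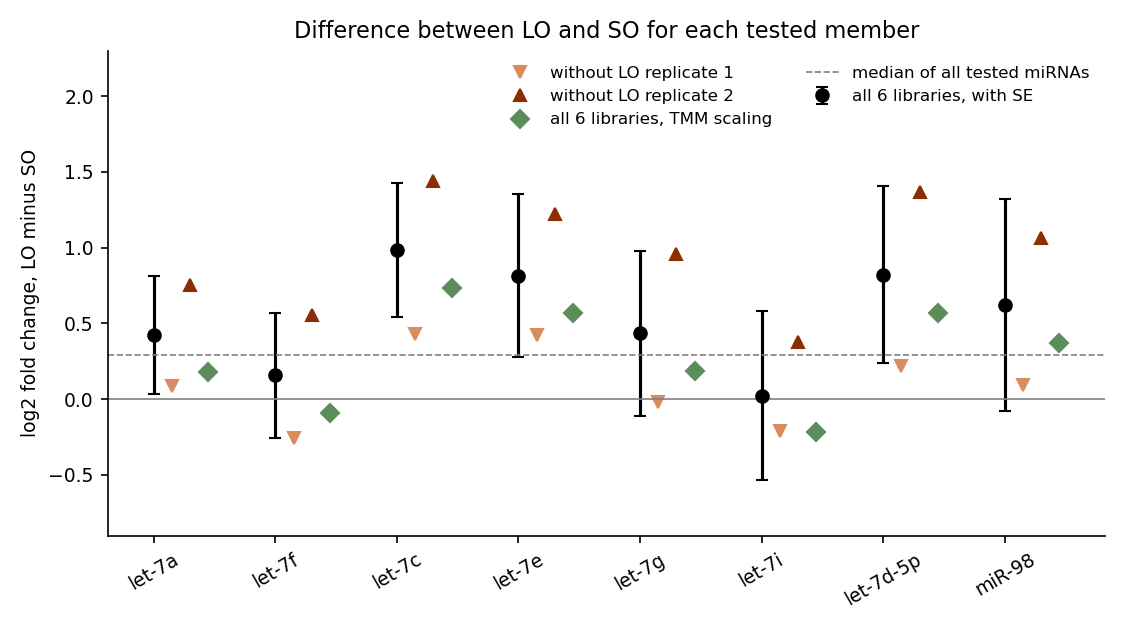
Log2 fold change of each tested member, LO minus SO, from the limma fit with its SE (black), without LO replicate 1, without LO replicate 2 and with TMM scaling; the dashed line is the median of all tested miRNAs. Without LO replicate 2 all 8 members lie above 0, and without LO replicate 1 the values of let-7f, let-7g and let-7i lie below 0.

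With the reads of let-7f, let-7c and let-7e, all 1 substitution away, added to let-7a as 1 row, the sum was 4538, 1521 and 2477 RPM in LO, against 2094, 2022 and 1562 RPM in SO. The log2 fold change of the sum was 0.46 (SE 0.36) with a limma FDR of 0.777. The sum overlapped between the groups, as each of the 4 names did alone.

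The 5 miRNAs made next to let-7 genes in mammalian genomes, miR-99a, miR-99b, miR-100, miR-125a and miR-125b, were all tested, and none passed FDR 0.05 in the limma fit. All had fold changes above 0 on the deposited scaling, beside 69.2% of all tested miRNAs, from 0.03 for miR-125b to 0.76 for miR-99b with a median of 0.64, and miR-125b stood at -0.22 with TMM. Without LO replicate 2 limma called miR-99a and miR-125a (FDR 0.0346 each), beside 17.3% of all tested miRNAs, and without LO replicate 1 miR-125a and miR-125b were at -0.15 and -0.08. miR-99a, the neighbour of let-7c, lay at 170, 34.7 and 87.1 RPM in LO, against 40.2, 53.7 and 62.2 RPM in SO, below let-7c in every library. miR-125a exceeded let-7e, its neighbour, in every library, at 457, 86.7 and 200.1 RPM in LO, against 101, 230.3 and 136 RPM in SO. miR-99b, on the other side of let-7e, was at 64.3, 17.3 and 43.5 RPM in LO, against 17.2, 25.0 and 21.9 RPM in SO, below let-7e throughout.

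Likeness to the family was measured as the root mean square difference between centred log2(RPM + 1) profiles over the 6 libraries, with the summed family as the reference. Of 96 tested miRNAs outside the family, the closest were miR-708-5p (0.112), miR-191 (0.147), miR-676-3p (0.161), miR-29c (0.179) and miR-29a (0.192), beside a median of 0.474. miR-708-5p lay at 85.1, 21.7 and 37.2 RPM in LO, against 35.5, 33.9 and 25.1 RPM in SO. Among the members, let-7a, which weighs most in the sum, was closest at 0.0870, and let-7c was at 0.325.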

How the data were processed

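Each deposited table gives 1 value for each of 326 mature pig miRNAs. The file header calls it TPM, but each deposited value was a whole multiple of 1 step per library whatever the sequence length, so values were read as RPM of a total set by the authors. Divided by its step, 100% of the values above 0 came out as whole reads (tolerance 0.01 read). Per the submitters' processing notes, the tools were Bowtie2 2.2.2, cutadapt, bcl2fastq and edgeR and the genome build was Sscrofa10.2; their roles are not stated. Any use of the kit's molecular identifiers is not stated either. No pair of replicates agreed within sampling noise (chi-square over degrees of freedom from 2.03 to 10.5).

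LO and SO were compared with limma 3.58.1 (R 4.3.3, intensity trend, group as the only term, pseudocount 1 RPM) over the 104 miRNAs that passed edgeR's filterByExpr on recovered reads. The fit was also run on simulated data with larger changes than those of the members here, so its power for the members was not tested. edgeR 4.0.16 (quasi-likelihood, TMM) and DESeq2 1.42.0 on recovered reads were alternatives, beside other pseudocounts, scalings and filters, each library left out and a replicate block. Shares within the family were compared by exact permutation, unadjusted, although they had been planned as a description without a p-value. Named miRNAs are the members, names sharing their seed, the 5 cluster partners and the 5 closest profiles, beside single names from the cell marker lists and miR-205 in a scaling alternative. The members, lists and rules were chosen with earlier results of these data known.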

Additional observations from a re-analysis of the deposited data

How the results depend on the processing

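The number of members called higher in LO was 0 with all 6 libraries under every scaling, filter, pseudocount and tool tried. It ranged from 0 to 3 when 1 library was left out of limma, with 3 without LO replicate 2, and from 0 to 1 when 1 library was left out of edgeR, a setting added after seeing the data, with 1 without SO replicate 2. No setting called a member lower in LO. let-7a, let-7c, let-7d-5p, let-7e and miR-98 kept fold changes above 0 in every setting. let-7i, at 0.02, turned to -0.078 when scaled to listed reads without miR-205, -0.22 with TMM on log2 CPM, -0.23 in edgeR and -0.27 in DESeq2. It ranged from -0.21 to 0.38 with 1 library left out of limma and from -0.26 to -0.066 in edgeR (-0.199 without SO replicate 3). let-7f turned to -0.089 with TMM on log2 CPM, -0.080 in edgeR and -0.12 in DESeq2. It ranged from -0.26 to 0.56 with 1 library left out of limma and from -0.19 to 0.088 in edgeR (-0.072 without LO replicate 2 and -0.065 without SO replicate 3). let-7g ranged from -0.022, without LO replicate 1, to 0.96 with 1 library left out of limma. The cause was not tested.

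The median fold change of the members ranged from 0.09 to 1.01 over all settings, and the difference in the family's share of listed reads from 1.20 to 4.79 percentage points. Same-numbered LO and SO libraries did not deviate together from their group means (r = -0.34, -0.22 and 0.08 across the 104 tested miRNAs). LO replicate 1 correlated best with SO replicate 2 (r = 0.43), and no label says that a number marks a shared animal or day. With the replicate number as a block, limma called 0 members, with a median fold change of 0.53. edgeR with the block also called 0 members, with let-7f at -0.090 and let-7i at -0.24. The alternatives planned for the arm balance of let-7d were not run, since its 3p arm had too few reads to test. Depth limits let-7d-3p and miR-98 most: 3 reads, the limit that a count of 0 allows, are 6.50 RPM in LO replicate 2.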
